A study of Mus musculus with 4 samples.

Results

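Microglia, the resident macrophages of the brain, were followed through 8 of their genes in 4 control samples of hippocampal area CA1. The genes were Laptm5, C1qa, C1qb, C1qc, Csf1r, Ctss, Tyrobp and Cd68. They were found by taking every probe set whose platform gene symbol is one of these 8 names, which gave 12 probe sets for 8 genes, out of 12422 probe sets for 8251 named genes. Each sample was total RNA of area CA1 from young male C57BL/6J mice that an experimenter had handled and that received no other treatment. RNA was taken 1, 2, 4 or 6 h after the last shock given to experimental mice, which are not analysed here. Each hour had 1 sample on 1 Affymetrix array. How many mice each sample pooled is not stated in the labels, and with 1 array per hour a difference between hours cannot be checked against replicates.

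As background, microglia depend on the receptor encoded by Csf1r for survival, sense their surroundings through receptors that signal through the adaptor encoded by Tyrobp, and digest what they engulf in lysosomes. C1qa, C1qb and C1qc encode the chains of C1q, the molecule that starts the classical complement cascade and tags synapses for removal during development. In the brain, microglia are the main source of C1q. Many of these genes are controlled by PU.1, the transcription factor encoded by Spi1, which binds DNA at a GAGGAA core.

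The promoters show how close the C1q genes lie and where this core occurs. Among protein-coding genes of chromosome 4, C1qb, C1qc and C1qa follow each other with no other gene between them. RefSeq's promoter table (build GRCm38.p6) was matched by symbol for 5 of the members used here, Laptm5, C1qb, C1qc, Ctss and Cd68, and the 250 bases before each start were read. The 2 C1q promoters are given whole, since these neighbouring genes make subunits of a common protein, with every GAGGAA, or its reverse complement TTCCTC, in capitals. Both lie on the minus strand, at chr4:136886201-136886450 for C1qb and chr4:136892915-136893164 for C1qc, and read 5′ to 3′:
C1qb: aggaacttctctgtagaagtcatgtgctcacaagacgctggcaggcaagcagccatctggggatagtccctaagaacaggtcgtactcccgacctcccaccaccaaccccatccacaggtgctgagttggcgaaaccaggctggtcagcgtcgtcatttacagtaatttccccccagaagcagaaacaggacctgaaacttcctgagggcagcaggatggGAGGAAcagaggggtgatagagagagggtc
C1qc: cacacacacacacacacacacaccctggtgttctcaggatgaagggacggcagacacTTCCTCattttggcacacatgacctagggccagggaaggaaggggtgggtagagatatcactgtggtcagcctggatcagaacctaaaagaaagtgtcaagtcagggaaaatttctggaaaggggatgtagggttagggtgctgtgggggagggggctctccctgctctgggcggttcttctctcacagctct

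For the other promoters the 60 bases around the match are given, from chr4:130913251-130913310 (plus strand) for Laptm5, chr3:95526595-95526654 (plus strand) for Ctss and chr11:69666361-69666420 (minus strand) for Cd68:
Laptm5: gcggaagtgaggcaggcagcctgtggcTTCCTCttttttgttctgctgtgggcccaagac
Ctss: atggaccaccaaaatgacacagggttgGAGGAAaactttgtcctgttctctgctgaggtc
Cd68: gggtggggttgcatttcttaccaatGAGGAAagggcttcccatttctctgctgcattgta

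The match began 30 bases before the start in C1qb, 38 in Laptm5, 164 in Ctss, 193 in C1qc and 225 in Cd68. GAGGAA, searched on both strands, occurred in 5 of 5 member promoters and in 23.3% of all 32851 promoters of the same length. It occurred in the promoters of 15 of 35 other microglial genes, 3 of 13 astrocyte genes, 2 of 8 oligodendrocyte genes and 4 of 9 neuronal genes, counting a gene with several promoters once. The motifs were chosen with the sequences at hand, so these counts are no test of enrichment. The letters are a description and not a measured site. Of 5 further motifs searched, AGGAAG, which can overlap GAGGAA, was in 3 of 5 member promoters (29.5% of all). TATAAA was in 2 of 5 (12.4% of all), and GAGGAAGT (2.44%), GGGGAA (20.3%) and TGACTCA (4.46%) were in 1 each.

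Most neuronal markers were bright enough to test, and 1 array stood apart in its Gapdh ratio. Snap25, a synaptic protein of neurons, gave signals of 18421, 17938, 19821 and 19356 at 1, 2, 4 and 6 h, and Wfs1, a marker of CA1 pyramidal cells, gave 2293, 1877, 2484 and 2508. Signals are the authors' scaled intensities and can be compared across arrays within a probe set but not between probe sets. For Gapdh, the signal at the 3′ end of the transcript over that at its 5′ end, a measure of RNA and labelling quality, was 1.08 on the 2 h array and between 3.62 and 4.10 on the others. For beta-actin the same ratio was 1.72 on the 2 h array and 2.27, 2.59 and 2.93 on the 1, 4 and 6 h arrays, a smaller gap. Results on the 2 h array are therefore given with the Gapdh ratio in view, and what it contributed to them was not tested. Of 13 neuronal genes on the array 12 were tested. At 2 h 7 of these 12 were above 1 h, against 49.7% of all tested probe sets. At least 2-fold above were 4 of 12, where 10.2% of all tested probe sets were at least 2-fold away in either direction. The median log2 difference of the 12 was 0.48, beside 0.00 over all tested probe sets, or 0.53 after quantile normalization and 0.35 with arrays centred on their medians. The widest ranges were those of Map2, a microtubule protein of dendrites, with 19.5, 656, 120.5 and 129, and Gad2, an enzyme of inhibitory neurons, with 19.2, 160.2, 295 and 140.5, both under the floor of 36.8 at 1 h. Eno2, a neuronal enolase, gave 4824, 6797, 4712.5 and 5096, and Thy1, a surface protein of neurons, gave 15596.5, 13217, 14670.0 and 14784. Camk2a, a kinase of excitatory neurons named after its values were seen, was too dim to test, with 41.0, 351, 195 and 43.3. The medians at 2 h were -0.29 for 13 tested astrocyte genes, 0.21 for 9 of oligodendrocytes, -0.40 for 6 of endothelium, -0.31 for 3 of blood and 0.08 for 10 of choroid plexus and meninges. A straight-line trend over the hours passed limma's test in 0 genes of these 6 lists, with 0 at an unadjusted p under 0.05. What such differences contributed to the members' results was not tested. In bulk tissue, fewer cells of a type and less RNA per cell cannot be told apart.

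All 8 genes were above the threshold in control CA1. The threshold was the 40th percentile of all values of the 4 arrays pooled, a signal of 116.4, and 58.3% of probe sets had a mean log2 signal at or above it. Of the 12 member probe sets, 11 passed, and each of these 11 was above 116.4 on all 4 arrays. The exception was the second probe set of Cd68, with 13.4, 45.6, 27.7 and 3.1, of which 3 values lie under the floor of 36.8 that was applied before taking log2. Nearest above the threshold was the second probe set of C1qb, with a geometric mean of 220.9. The genes with several probe sets were Laptm5, C1qb, Csf1r and Cd68, and each gene entered the counts through its brightest probe set.

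**Figure D1:**
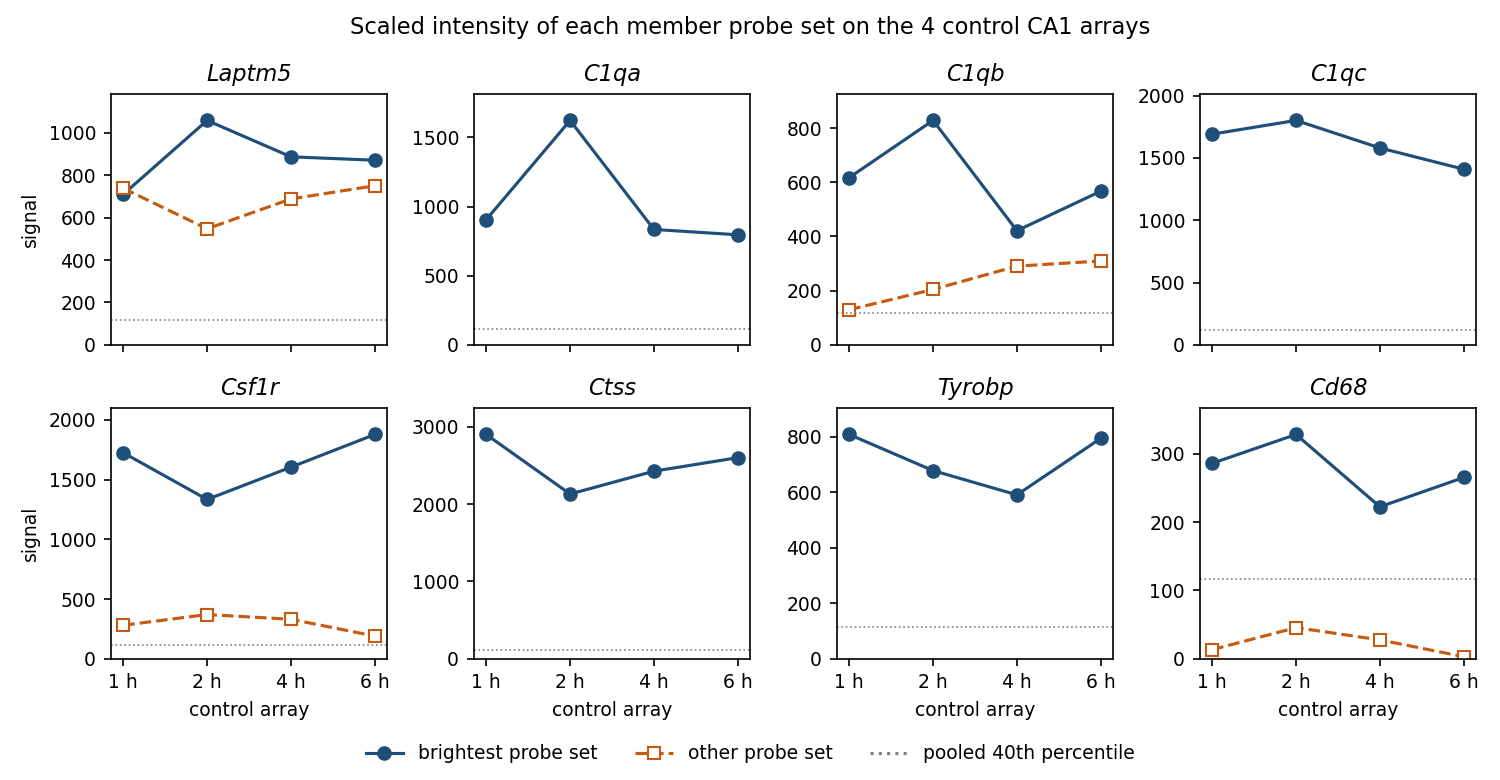
Signal (y axis, scaled intensity from 0, a separate scale for each gene) on the 1, 2, 4 and 6 h control arrays (x axis) for each of the 12 probe sets; filled circles are the brightest probe set of a gene, open squares the other one, and the dotted line is the pooled 40th percentile of 116.4. Only the second Cd68 probe set lies under the line, and the paired probe sets of Laptm5, C1qb and Csf1r do not run in parallel.

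The 3 chains of C1q each had their highest signal on the 2 h array. C1qa, which encodes the A chain, gave 905, 1623, 834.5 and 796 at 1, 2, 4 and 6 h, a mean of 1039.7 ± 392 (SD, n = 4 arrays). The 2 h array alone was high, 1.79 times the 1 h signal, and the other arrays lay within 1.14-fold of each other. C1qa had the widest range of the 8 genes, 2.04-fold, which is 1.14-fold without the 2 h array.

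C1qb, which encodes the B chain, gave 617, 828.5, 421 and 567, a mean of 609 ± 169 (SD, n = 4 arrays). It was high at 2 h and low at 4 h, with a range of 1.97-fold, or 1.47-fold without the 2 h array. Its second probe set, whose name marks an incomplete set of probes, gave 129.5, 204, 290.4 and 309.5, lowest at 1 h and highest at 6 h. The probe sets of C1qb were on opposite sides of their own means on all 4 arrays.

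C1qc, which encodes the C chain, gave 1691.5, 1802, 1581 and 1409.8, a mean of 1621 ± 167 (SD, n = 4 arrays). It was the steadiest of the 8 genes, with a range of 1.28-fold. Its 2 h signal was 1.07 times the 1 h signal, so the 3 chains did not differ from 1 h by the same factor. With arrays centred on their medians, C1qc was highest at 1 h instead, while C1qa and C1qb were still highest at 2 h.

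**Figure D2:**
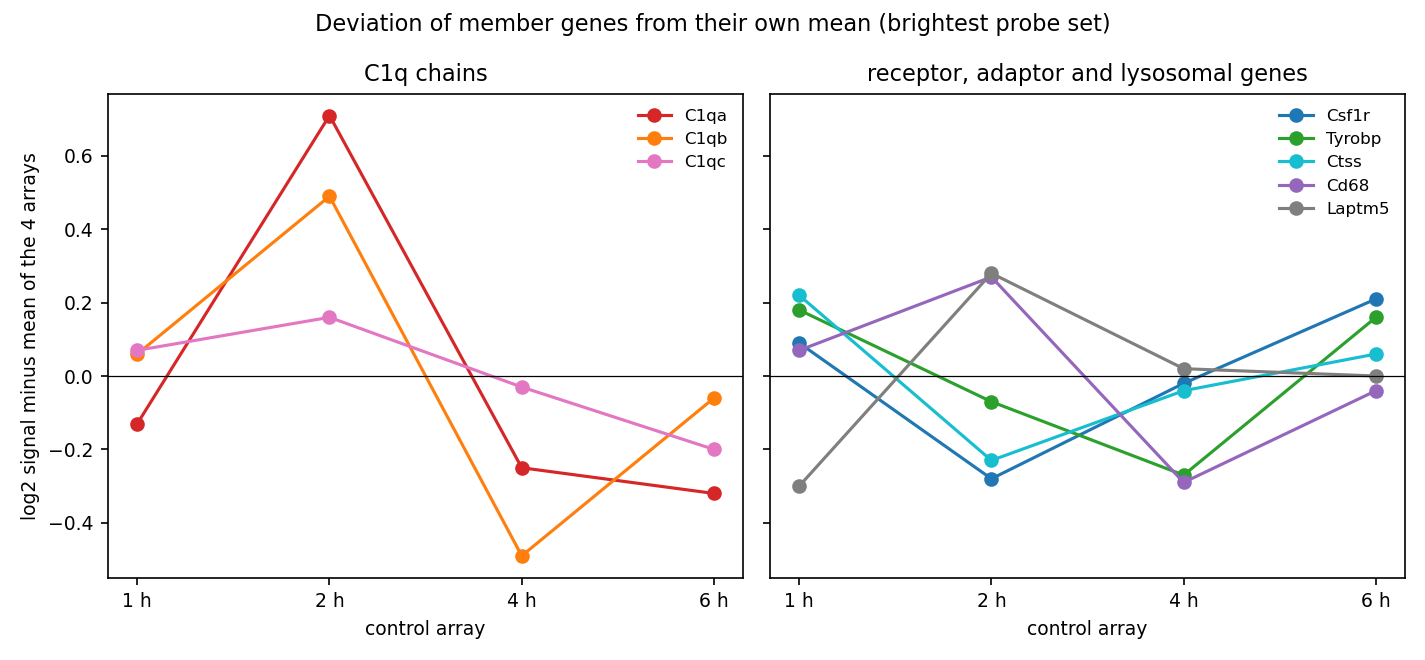
Log2 signal minus the gene's own mean over the 4 arrays (y axis) on the 1, 2, 4 and 6 h control arrays (x axis) for the brightest probe set of each gene, the C1q chains on the left and the other members on the right; each line is a gene. At 2 h C1qa reaches 0.71, C1qb 0.49 and C1qc 0.16, whereas Csf1r (-0.28) and Ctss (-0.23) are at their lowest.

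The receptor and its signalling partner were lower at 2 h than at 1 h. Csf1r, the receptor for the growth factors CSF1 and IL-34, gave 1724, 1334, 1604 and 1878, a mean of 1635 ± 230.0 (SD, n = 4 arrays). The 2 h array was the lowest, 0.773 times the 1 h signal. The second Csf1r probe set, whose name marks relaxed design rules, gave 281, 371, 331 and 190.4, highest at 2 h and lowest at 6 h, again on the opposite side of its mean on every array. Tyrobp, the adaptor also called DAP12, gave 808, 678, 590.4 and 794, a mean of 717 ± 103 (SD, n = 4 arrays). It was lowest at 4 h, and its 6 h signal was 0.983 times that at 1 h.

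The lysosomal members fell on both sides. Ctss, the cathepsin S protease of macrophage lysosomes, gave 2899, 2129, 2424.5 and 2599, a mean of 2513 ± 322 (SD, n = 4 arrays), with its lowest signal at 2 h. Cd68, a lysosomal membrane glycoprotein used to stain phagocytic cells, gave 286, 328, 222 and 265, a mean of 275 ± 44.0 (SD, n = 4 arrays), with its highest at 2 h. Among the brightest probe sets of the 8 genes, only that of Cd68 has a name ending in _s_at and not in the plain _at. Laptm5, a lysosomal membrane protein of blood-derived cells, gave 710.0, 1059, 887 and 871, a mean of 882 ± 143 (SD, n = 4 arrays). The 2 h array was highest and the 1 h array lowest. Its second probe set, whose name marks probes shared within a gene family, gave 738, 547, 688 and 750.4, with the 2 h array lowest.

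Where a gene had a second tested probe set, it therefore gave no repeat of the first. For Laptm5 and Csf1r the array that was highest or lowest at 2 h on one probe set was the reverse on the other. The root mean square difference between the paired profiles, after each was centred on its mean, was 0.37 log2 for Laptm5, 0.53 for Csf1r and 0.73 for C1qb. For comparison, the median between different members was 0.30. The 2 h order of these 3 genes thus depends on the probe set read, whereas C1qa, C1qc, Ctss and Tyrobp had 1 probe set each.

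No member had a trend over the hours that passed the test. The steepest slope of a brightest probe set was that of C1qa, -0.11 ± 0.09 log2 per hour (SE, 4 arrays; 95% interval -0.32 to 0.09), with an adjusted p of 0.9996 by limma over all 7237 probe sets. The slopes of the 8 genes ran from there to 0.05 for Csf1r, and 2 of 8 were above 0. Limma called 0.0% of all probe sets, with 196 (2.71%) at an unadjusted p under 0.05. Among these 196 was 1 member probe set, the second of C1qb, with a slope of 0.24 ± 0.10 (SE, 4 arrays; unadjusted p = 0.0451, adjusted p = 0.9996 by limma). The brightest C1qb probe set sloped the other way, by -0.09 ± 0.09 (SE, 4 arrays). The 95% interval of the second probe set was 0.01 to 0.47. Leaving out the 2 h array, limma called 32 probe sets, none of them a member, with 416 at an unadjusted p under 0.05. Leaving out the 1 h array it called 0, with 625 at an unadjusted p under 0.05. Both fits have 1 residual degree of freedom.

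Read through its brightest probe set, no member gene was 2-fold from 1 h at a later hour. Of the 11 tested member probe sets 1 was, the second of C1qb, at 2.24-fold at 4 h and 2.39-fold at 6 h. Over brightest probe sets the count at 2 h was 0 of 8, where 10.2% of all tested probe sets were at least 2-fold away from 1 h. At 4 h it was 0 of 8 against 6.2%, and at 6 h 0 of 8 against 6.54%. With a threshold of 1.5-fold the count at 2 h was 1 of 8, C1qa, against 28.3% of all tested probe sets. At 2 h 5 of 8 genes were above their 1 h signal, with a median log2 difference of 0.14, against 49.7% of all tested probe sets and a median of 0.00. With arrays centred on their medians, which moved the median of all tested probe sets by -0.12 log2 at 2 h against 1 h, 4 of 8 were higher and the median was 0.02. At 4 h 1 of 8, Laptm5, was above 1 h (median -0.19), and at 6 h 2 of 8, Laptm5 and Csf1r (median -0.12), against 51.3% and 52.5% of all tested probe sets. Centring moved the median of all tested probe sets by -0.11 at 4 h and -0.14 at 6 h, and the members then had 1 of 8 above 1 h at each hour, with medians of -0.30 and -0.25. Csf1r at 6 h, 0.12 log2 above 1 h, was at -0.02 with centring and at -0.22 when its probe sets were averaged. These comparisons share the 1 h array.

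The median spread of the 8 genes over the 4 arrays was near that of bright probe sets, though some of the 8 were dimmer. The SD of log2 signal ran from 0.15 for C1qc through 0.19 for Ctss, 0.21 for Csf1r, 0.21 for Tyrobp, 0.23 for Cd68, 0.24 for Laptm5 and 0.40 for C1qb to 0.48 for C1qa. The median was 0.22, beside 0.28 over all tested probe sets. Split by brightness into 3 groups of equal size, the tested probe sets had medians of 0.21 in the bright group, 0.27 in the middle group and 0.41 in the dim group. C1qb and Tyrobp were in the middle group, Cd68 in the dim group and the other members in the bright group. C1qa and C1qb were wide for their brightness group, with SDs above 94.2% and 79.1% of probe sets of like brightness. C1qc was narrower than most, above 31.1% of its group, and Cd68 was narrow for a dim probe set, above 18.4%. Within 1.5-fold over the 4 arrays were 6 of 8 genes, against 46.4% of all tested probe sets and 68.6% of the bright group. Without the 2 h array the median SD was 0.16, beside 0.15 in the bright group. The widest range was then the 1.47-fold of C1qb.

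**Figure D3:**
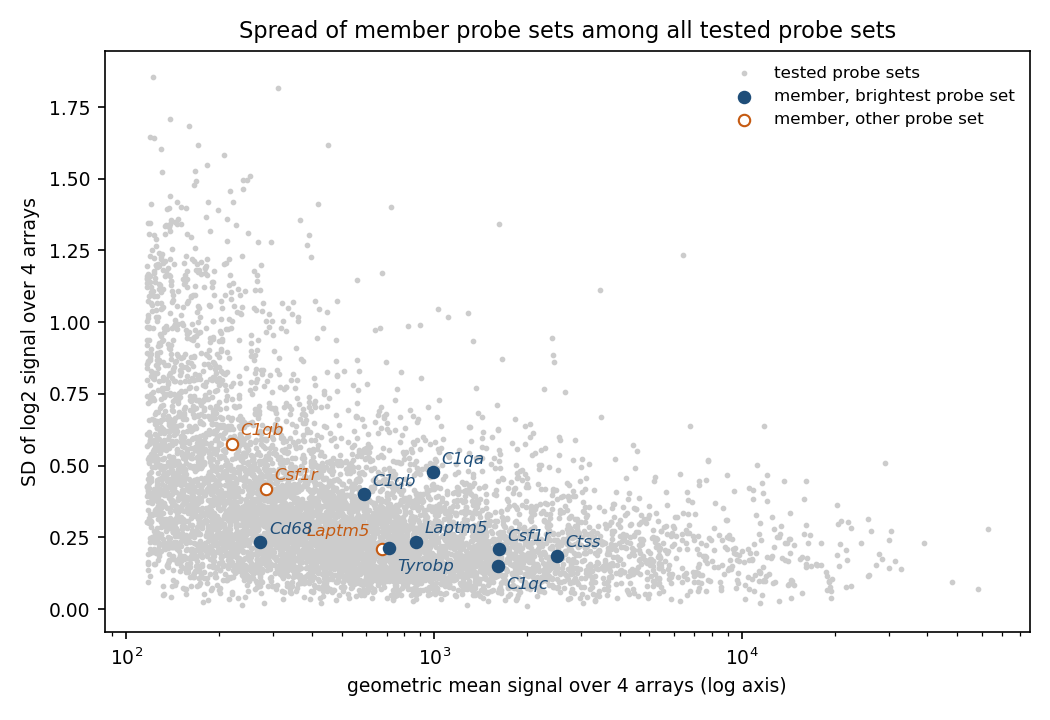
SD of log2 signal over the 4 arrays (y axis) against geometric mean signal (x axis, log scale) for 7237 tested probe sets in grey and the 11 tested member probe sets in colour, filled for the brightest probe set of a gene and open for the other. C1qa (0.48) and C1qb (0.40) lie above the other filled points, which sit between 0.15 and 0.24.

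The members did not vary as a block over the 4 arrays. The 2 h array was the highest for 5 of 8 genes (C1qa, C1qb, C1qc, Cd68 and Laptm5), against 29.2% of all tested probe sets, and the lowest for 2 of 8 (Csf1r and Ctss), against 32.0%. With arrays centred on their medians it was the highest for 4 of 8. The 4 h array was above the gene's own mean for 1 of 8, Laptm5, against 52.5% of all tested probe sets, and for 2 of 8 after quantile normalization.

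Among the 28 pairs of genes, 6 were on the same side of their means on all 4 arrays, or 21.4%, against 8.69% of pairs of all tested genes. These 6 pairs joined the genes into the trio of C1qb, C1qc and Cd68 and the trio of Csf1r, Ctss and Tyrobp. Another 3 pairs, Laptm5 with each of Csf1r, Ctss and Tyrobp, were on opposite sides on all 4, or 10.7%, against 8.51%. With arrays centred on their medians the counts were again 6 and 3. After quantile normalization they were 4 and 1. Csf1r, at -0.02 log2 from its mean at 4 h as deposited, then no longer paired with Ctss and Tyrobp on all 4 arrays. None of the 3 Laptm5 pairs remained, and the 1 opposite pair was C1qa with Csf1r. As deposited, Laptm5 was 0.02 log2 from its mean at 4 h and closer still at 6 h. The second probe sets of Csf1r and C1qb lie on the opposite side from the brightest on every array. That of Laptm5 lies on the same side as its brightest on 1 array. The trios and the Laptm5 pairs are therefore those of the brightest probe sets. The closest profiles were those of Csf1r and Ctss, with a root mean square difference of 0.10 log2, and the farthest those of C1qa and Csf1r, with 0.58. The median over the 28 pairs was 0.30, beside 0.26 for all pairs of probe sets in the bright group and 0.34 in the middle group. The pairs share their members and the same 4 arrays, so these are descriptions. No correlation is given for 4 samples.

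By root mean square difference, the 3 chains of C1q were no closer to each other than members were in general. The differences were 0.23 for C1qa and C1qb, 0.29 for C1qb and C1qc and 0.32 for C1qa and C1qc. By side of their own means, C1qb and C1qc matched on 4 arrays, and C1qa matched each of them on 3. Without the 2 h array C1qa and C1qc differed by 0.04, while C1qb differed from them by 0.22 and 0.25. Over all members the median without that array was 0.16, beside 0.18 in the bright group. C1qa and Csf1r, at 0.58 over all 4 arrays, differed by 0.14 without the 2 h array, the one with the Gapdh ratio of 1.08.

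**Figure D4:**
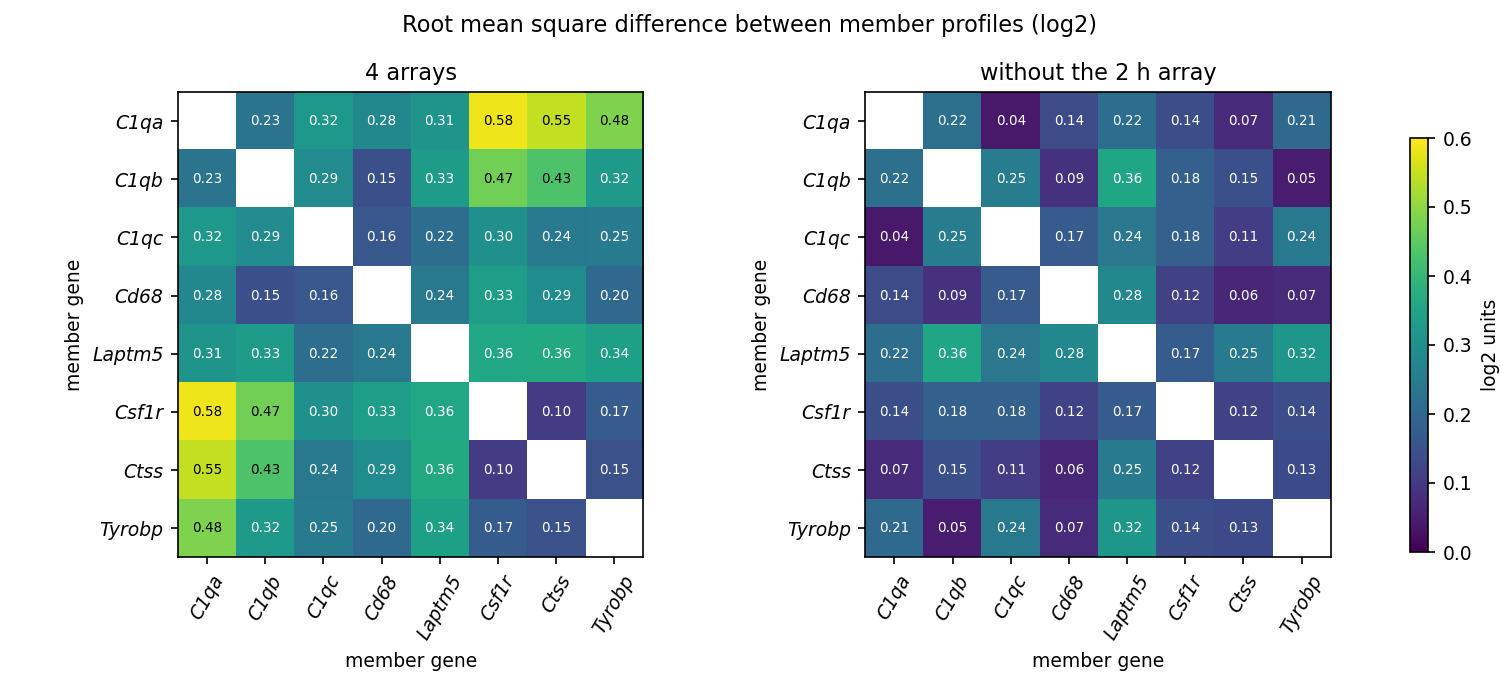
Root mean square difference in log2 between the centred profiles of each pair of member genes (rows and columns), over the 4 arrays on the left and without the 2 h array on the right; darker cells are closer profiles. On the left C1qa and Csf1r are farthest apart at 0.58, and on the right the same pair is at 0.14.

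The mean profile of the 8 genes was nearly flat, with deviations of 0.03, 0.16, -0.17 and -0.02 log2 at 1, 2, 4 and 6 h. By root mean square difference over the 4 arrays, the genes most like it among 5538 were Gcdh (0.0074), Lsm4 (0.0123), Ptpn21 (0.014), Ndrg2 (0.0152) and Ctsb (0.0161). They encode a mitochondrial dehydrogenase, an RNA-binding protein, a tyrosine phosphatase, a protein abundant in astrocytes and the lysosomal protease cathepsin B. Ctsb gave 6029, 6528, 5330.2 and 5768. In all, 299 genes (5.4%), these 5 included, lay within 0.1 log2 of the mean profile.

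Other complement genes were read as a list of the C1 complex and classical cascade and a list of the alternative and lectin cascades. The former also holds Hc, C8g and C9, of the membrane attack complex. In it 3 of 5 genes on the array passed and were tested, where 58.3% of all probe sets passed. Limma called 0 of these 3, with 0 of 3 at an unadjusted p under 0.05. They were C1ra, the protease partner of C1q, with 177, 139, 183 and 169, the cascade protease C2 with 147, 140.2, 154 and 245, and C8g, a subunit of the membrane attack complex, with 155.5, 110.5, 213 and 162. At 2 h against 1 h these 3 differed by -0.35, -0.07 and -0.49 log2, where 49.7% of all tested probe sets were above 1 h. C1qa, C1qb and C1qc differed by 0.84, 0.42 and 0.09, and C1qc by -0.03 with arrays centred on their medians. The name of the C1ra probe set marks probes shared within a gene family. Of the alternative and lectin cascades 1 of 7 was tested, complement factor B (Cfb), with 222, 29.4, 171 and 201, its 2 h value under the floor of 36.8. The name of the Cfb probe set marks relaxed design rules.

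Regulators and receptors of complement differed in their medians but overlapped gene by gene. Of 9 regulators 4 were tested, with a median log2 difference of -0.27 at 2 h against 1 h and a range of -0.78 to 1.27. Clusterin (Clu), an inhibitor of the terminal complex made by astrocytes, gave 10369, 8431, 8912 and 8524.5. Cd59a, which blocks the membrane attack complex, gave 320, 270.5, 392 and 254.5. The C1 inhibitor Serping1 gave 195, 114, 38.9 and 224 and vitronectin (Vtn) 121, 293, 209 and 254. Of 10 receptors 4 were tested, with a median of 0.33, which was 0.20 after quantile normalization or centring. The 4 receptors ran from -0.06 to 0.55, within the range of the regulators. Lrp1, an endocytic receptor, gave 1805, 2525, 1899 and 2074, C5ar1, the receptor for C5a, gave 322, 308.5, 199.5 and 367, and Itgax, a complement receptor integrin, gave 194, 218, 168 and 70.5. Limma called 0 of these 8 genes, with 0 of 8 at an unadjusted p under 0.05.

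The ligands of microglial receptors were measured in 6 of 8 genes. Csf1, a ligand of the Csf1r product, gave 511, 505, 703 and 468.5, highest at 4 h, where Csf1r gave 1604. Cx3cl1, the neuronal chemokine read by microglia through Cx3cr1, gave 13917, 16569, 17125 and 17313. Csf3, a growth factor of granulocytes, gave 501.5, 528, 694 and 639. Cd47, a signal against engulfment, gave 4742, 2635, 4140.2 and 4019.9, and Cd200, a neuronal restraint on microglia, gave 533, 329, 531 and 509.6. Both were lowest at 2 h. The median of the 6 was -0.32 log2 at 2 h against 1 h, and limma called 0 of 6, with 0 of 6 at an unadjusted p under 0.05.

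Of 8 signalling genes around the Tyrobp adaptor 6 were tested. Like Tyrobp, 2 of these 6, Vav1 and Sirpa, were lowest at 4 h, against 22.0% of all tested probe sets. The test gave 0 called by limma and 0 at an unadjusted p under 0.05. Syk, the kinase that the adaptor recruits, gave 449, 416, 611 and 699, higher at 4 h and 6 h than at 1 h and 2 h. Sirpa, a receptor for Cd47, gave 1127, 1985, 1099 and 1209, highest at 2 h. Grb2, an adaptor of growth factor receptors, gave 1203, 1251, 1621 and 1294, and Vav1, an exchange factor of blood cells, gave 225, 109, 95.7 and 236. The median was -0.03 at 2 h against 1 h.

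Other microglial markers had no common direction. Of 32 on the array 17 were tested and 15 were too dim, 3 of these at or under the floor on all 4 arrays. Limma called 0 of 17, with 1 of 17 at an unadjusted p under 0.05, against 2.71% of all tested probe sets. It was Slc2a5, a fructose transporter, named after its values were seen (101, 240, 260 and 326). At 2 h 8 of 17 were above 1 h, against 49.7% of all tested probe sets, with a median of -0.01 log2. At 4 h 12 of 17 were above 1 h, against 51.3% of all tested probe sets and 1 of 8 members. Cx3cr1, the receptor of microglia for Cx3cl1, gave 273, 520, 419.5 and 404, and Spi1, which encodes PU.1, gave 147, 165, 158 and 154. Both were named after their values were seen. Tmsb4x, an actin-binding peptide, gave 19150, 19004, 20223 and 19381, a range of 1.06-fold. The actin regulator Coro1a gave 1553, 1107, 1483 and 1586, and Selplg, an adhesion ligand, gave 1012.5, 1454, 1151 and 1158. The widest ranges were those of Cd37, with 290, 125, 119 and 76.4, and Cd53, with 62.8, 138, 154 and 218.5, both membrane proteins of leukocytes.

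**Figure D5:**
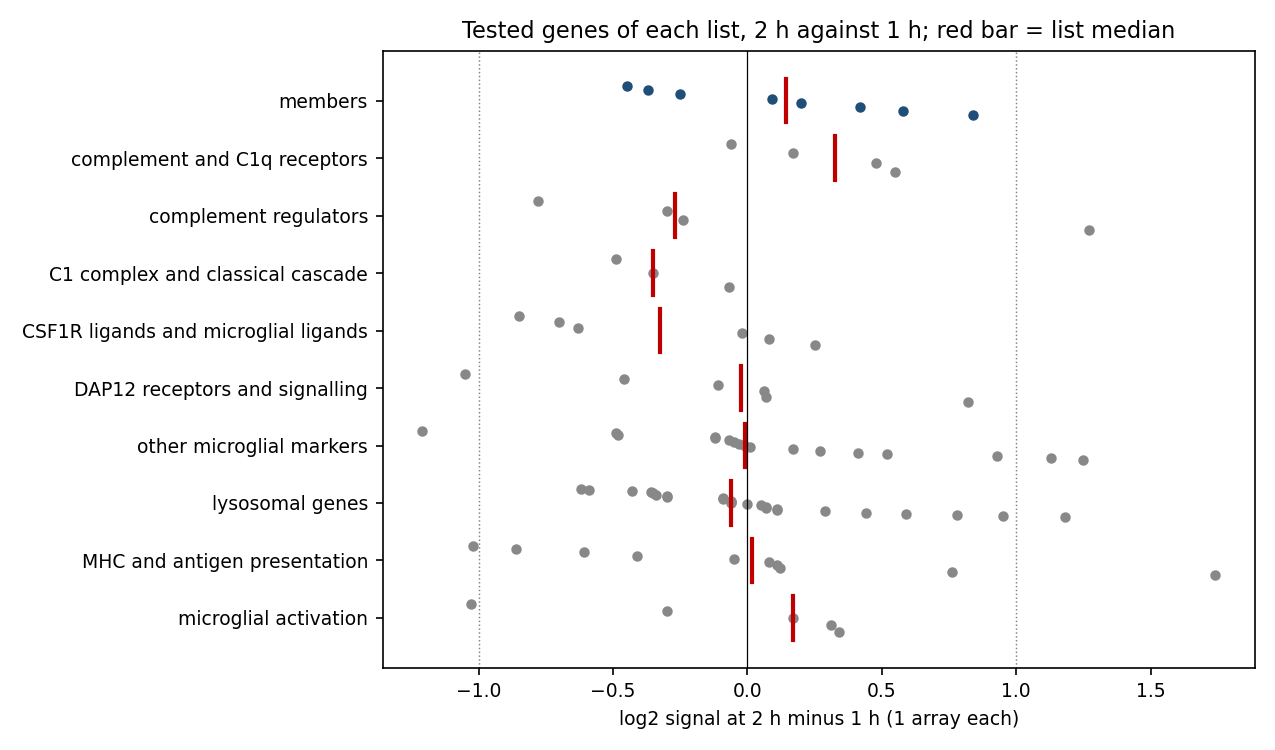
Log2 signal at 2 h minus 1 h (x axis, 1 array each) for each tested gene (point) of the members, in blue, and of 9 lists of related genes, in grey; the red bar is the median of a list and dotted lines mark a 2-fold difference. The 8 members lie within the dotted lines with a median of 0.14, and the medians of the 9 plotted lists lie between -0.35 and 0.33. The alternative and lectin cascades (1 tested gene), the border macrophage markers (2 tested, median 0.34) and the lists of other cell types are not plotted.

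Macrophages of the brain's borders and blood leukocytes share several member genes. Of their own markers on the array 7 of 25 were bright enough to test, against 58.3% of all probe sets. The other 18 were not, 1 of them at or under the floor on all 4 arrays. The summed signal of the 2 tested border macrophage markers, Stab1 and Folr2, was 281, 341, 229 and 445, and that of the 5 tested leukocyte markers was 1394, 1500.1, 1636 and 1482. Mrc1, the mannose receptor of border macrophages, gave 44.6, 21.6, 10.1 and 47.7, and was named after its values were seen. Among leukocyte markers limma called 0 of 5, with 2 of 5 at an unadjusted p under 0.05, in opposite directions. Over all tested probe sets this share was 2.71%. Cd4, a coreceptor of T cells, gave 315, 320.2, 168 and 79.6. Its log2 signal sloped by -0.42 ± 0.10 per hour (SE, 4 arrays; unadjusted p = 0.00462, adjusted p = 0.9996 by limma). Camp, an antimicrobial peptide of neutrophils, gave 199, 178, 356 and 430.3, sloping by 0.26 ± 0.09 (SE, 4 arrays; unadjusted p = 0.0198, adjusted p = 0.9996 by limma). The B cell gene Ms4a1 gave 271, 272, 419 and 393, and Ighm, an immunoglobulin heavy chain, gave 408, 453, 491 and 382. Stab1, a scavenger receptor, gave 181, 176, 174 and 158. Folr2, a folate receptor, had the widest range, 5.22-fold, from its lowest signal at 4 h to 287 at 6 h. The 6 h array was the highest for 1 of the 8 members, Csf1r, against 24.5% of all tested probe sets. With arrays centred on their medians it was the highest for 0 of 8. What such cells contributed to the members' signals was not tested.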

How the data were processed

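Total RNA of 4 control CA1 samples, 1 for each hour in the sample titles, was measured on 1 array each. The values deposited by the authors are 1 intensity per probe set on a linear scale, and their software is not named in the labels. The mean of each array, with 2% of values removed at each end, was 500.3, so each array had been scaled to a common mean. Precision is limited by having 4 arrays. Values were used as deposited, those under the pooled 20th percentile (36.8) were raised to it before the log2 step. Of 12488 probe sets, 66 manufacturer controls were left out and the 7237 with a mean log2 at or above the pooled 40th percentile (116.4) were tested.

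A trend was tested with limma 3.58.1 in R 4.3.3 as a straight line of log2 signal against hour, two-sided, with a mean-dependent variance prior and Benjamini-Hochberg adjustment over all tested probe sets at 0.05. The fit was tested on simulated data. The 2, 4 and 6 h arrays were set against 1 h by fold, with no test. Python 3.11.15 and pandas 2.3.3 were used for the rest. Symbols came from the platform's annotation, updated by gene identifier for 10839 of 10855 probe sets with 1 symbol. Another 396 had several symbols and 1193 none.

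The members and the 18 further gene lists were chosen with earlier results of these data known. Genes named from a list are, for the lists of complement, microglial, lysosomal, antigen presentation, activation, macrophage, leukocyte and neuronal genes, the 3 brightest tested ones and the 2 with the widest range, apart from those said to be named otherwise; Csf1, as the ligand of a member, and Wfs1, as a marker of CA1, were also added after their values were seen. The lists of other glia, endothelium, blood and choroid plexus are given by counts and medians. The 6 motifs were chosen with the sequences at hand. Alternatives covered scaling, floor, filter, probe sets, time scale, variance prior, fold, reference array and leaving out each array.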

Additional observations from a re-analysis of the deposited data

How the results depend on the processing

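Limma called 0 of 8 members under every alternative run, with adjusted p-values from 0.499 to 1, and 0 genes of the other lists under the alternatives run for them. All 8 genes were above the threshold under each alternative except a filter at the 60th percentile, which kept 7. With a threshold of 1.5-fold, 1 member was away from 1 h at 2 h in place of 0. The median difference between member profiles was 0.16 to 0.307 when each array was left out, lowest without the 2 h array, and the median spread was 0.156 to 0.256. Slopes changed sign without passing the test. Averaging all probe sets of a gene gave 0.076 for C1qb and -0.039 for Csf1r, and quantile normalization gave 0.002 for Ctss. Leaving out each array in turn gave -0.07 to 0.074 for Laptm5, -0.011 to 0.123 for Csf1r, -0.06 to 0.072 for Ctss and -0.143 to 0.057 for Tyrobp. Over all probe sets, limma called 32 without the 2 h array, where its variance prior had infinite degrees of freedom, and 0 under the other alternatives. The cause was not tested. Fold differences from 1 h could not be computed without the 1 h array. No paired analysis was possible because each hour has 1 sample. Signals near the floor of 36.8 carry little information.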

Other observations

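Lysosomal genes, which microglia share with every other cell of CA1, were bright, with 25 of 27 tested. At 2 h 11 of 25 were above 1 h, against 49.7% of all tested probe sets, with a median log2 difference of -0.06. Limma called 0 of 25, with 0 of 25 at an unadjusted p under 0.05. Acid alpha-glucosidase (Gaa) had the widest range, with signals of 2915, 6615, 4967 and 4221 at 1, 2, 4 and 6 h. Tpp1, a lysosomal peptidase, was lowest at 2 h, with 1345.5, 894, 1837 and 1507. Cystatin C (Cst3), an inhibitor of cathepsins, gave 33091, 24563, 28509 and 28322, highest at 1 h and lowest at 2 h, as Ctss was. Lamp1, a lysosomal membrane protein, stayed within 1.11-fold.

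Of 15 genes of antigen presentation 10 were tested and limma called 0. At an unadjusted p under 0.05 was 1 of 10, against 2.71% of all tested probe sets. That gene was Cd74, the invariant chain of MHC class II, with 138, 145, 276 and 290. Its slope was 0.24 ± 0.10 log2 per hour (SE, 4 arrays; unadjusted p = 0.0454, adjusted p = 0.9996 by limma). H2-Eb1, a class II chain, was high at 2 and 4 h, with 73.5, 245.5, 228 and 75.4. B2m, the light chain of class I, gave 1617, 796, 798.5 and 1238, lower at 2 and 4 h. H2-DMa, a class II chaperone, gave 1232, 1191.5, 1201 and 1320.1, and H2-K1, a class I heavy chain, gave 641, 696, 629 and 773. Of 20 genes of microglial activation 5 were tested, and limma called 0 of 5, with 0 of 5 at an unadjusted p under 0.05. Their median log2 difference from 1 h was 0.17 at 2 h, or 0.03 after quantile normalization and 0.05 with centred arrays, and -0.21 at 4 h. Apoe, a lipid carrier, gave 20678, 26213, 20374 and 21123.5, Igf1, a growth factor, gave 1295.5, 1605, 1382.5 and 1350.4, and the tetraspanin Cd9 gave 856, 693, 619 and 858.5. Apoe and Igf1 were highest at 2 h. The wide ranges were those of Lpl, a lipase, with 426, 209, 242 and 339, and of Itgax, with 194, 218, 168 and 70.5. Il1b gave at most 17.1 and was under the floor on all 4 arrays. Tnf gave 34.5, 22.3, 178 and 39.4, above the 40th percentile on the 4 h array only. Both cytokine genes were named after their values were seen.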
